A study of Mus musculus with 12 samples.

Results

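Toll-like receptors are the membrane receptors by which microglia, the resident immune cells of the brain, sense microbial products and material from damaged cells. The expression of 10 genes of this system was read in ARG1+ and ARG1- microglia, out of 55487 genes in the count table. They were taken by name: the cell surface receptors Tlr1, Tlr2 and Tlr4, the endosomal receptors Tlr3, Tlr7, Tlr9 and Tlr13, the co-receptors Cd14 and Ly86, and the adaptor Myd88. Each name was matched to 1 Ensembl identifier, and all 10 passed the filter on low counts. The cells came from the basal forebrain and striatum of YARG mice, in which yellow fluorescent protein (YFP) is produced under control of the Arg1 locus. All groups shared this reporter allele and the age, postnatal day 13. By the study's methods, cells that carried CX3CR1 and lacked CD206 were sorted by YFP from tissue pooled over several mice of 1 sex. Both populations were collected from females and from males, with 3 RNA-seq libraries for each combination and 12 in all.

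Toll-like receptors bind their ligands either at the cell surface or inside endosomes. Most of them hand the signal to the adaptor MYD88, which gathers kinases of the IRAK family, and these lead to the kinases that release NF-kB from its inhibitor. TLR3 signals through another adaptor, TRIF (encoded by Ticam1), and TLR4 uses both. CD14 is a surface protein that passes lipopolysaccharide to TLR4 and its partner MD-2 (encoded by Ly96). LY86, also called MD-1, is a secreted relative of MD-2 that binds CD180, a receptor-like protein without a signaling domain of the Toll type. In the healthy brain these genes are expressed mainly by microglia and the macrophages at its borders.

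The sequences just before the start sites of Ly86 and Myd88 are shown because these genes were lower in ARG1+ microglia, together with those of Tlr1 and Tlr13, which did not pass the test. They were read from the RefSeq promoter table (build GRCm38.p6), which held 7 of the 10 genes, and were ended before the first base of the window that an annotated exon of the gene covers. Capitals mark matches to GAGGAA, the core of sites for the myeloid factor PU.1, to GAAANNGAA, a form of the site for interferon regulatory factors, and to TATAAA. The Ly86 stretch lies at chr13:37345095-37345207 on the plus strand, and the Myd88 stretch at chr9:119340042-119340268 on the minus strand, next to the first exon of the main Myd88 transcript and within the intron of another transcript that starts further upstream. The Tlr1 stretch lies at chr5:64933564-64933808 on the minus strand, and the Tlr13 stretch at chrX:106143025-106143203 on the plus strand.
Ly86: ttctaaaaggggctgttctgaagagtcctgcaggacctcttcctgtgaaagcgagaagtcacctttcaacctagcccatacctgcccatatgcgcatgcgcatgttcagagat
Myd88: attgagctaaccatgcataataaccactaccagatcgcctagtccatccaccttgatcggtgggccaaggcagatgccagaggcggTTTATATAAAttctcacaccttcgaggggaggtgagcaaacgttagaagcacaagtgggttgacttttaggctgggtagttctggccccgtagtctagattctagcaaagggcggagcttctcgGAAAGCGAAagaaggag
Tlr1: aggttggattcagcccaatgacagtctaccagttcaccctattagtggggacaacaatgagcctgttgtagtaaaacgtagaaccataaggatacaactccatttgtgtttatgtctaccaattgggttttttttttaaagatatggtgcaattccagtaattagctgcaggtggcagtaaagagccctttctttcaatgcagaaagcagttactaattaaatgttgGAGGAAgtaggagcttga
Tlr13: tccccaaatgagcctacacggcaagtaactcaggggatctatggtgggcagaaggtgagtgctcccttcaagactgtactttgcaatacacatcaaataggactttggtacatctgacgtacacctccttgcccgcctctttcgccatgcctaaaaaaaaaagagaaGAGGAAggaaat

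Both strands were searched in the 250 bases before the RefSeq start, a window that reaches further than the stretches printed. The 7 genes had 8 promoters, with 2 for Tlr1. GAGGAA was found in 3 of the 8 (Tlr9, Tlr13 and 1 of Tlr1), and in 23.3% of all 32851 promoters of the same length. GAAANNGAA was found in Myd88 alone of the 7, and in 7.13% of all promoters. TATAAA was found in Myd88 alone, on both strands with overlapping matches, and in 12.4% of all promoters. TGANTCA, the AP-1 motif, was found in Tlr9 (6.75% of all promoters), and GGANTTTCC, a form of the NF-kB site, in Tlr3 (1.07%). None of these 5 strings of letters was in the windows of Ly86 or Tlr2. Other forms of the same sites, such as other NF-kB sites, were not searched and may be present there.

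The libraries held from 28356659 to 60625170 counts each. Arg1 itself had 0 counts in all 6 ARG1- libraries and also in 4 of the 6 ARG1+ libraries, with 2 and 52 counts in the other two, both from females. The deposited counts therefore do not check the ARG1+ label, which rests on sorting by YFP. By the study's account, RT-qPCR on populations sorted and extracted the same way found Arg1 only in YFP+ cells. It also reports that ARG1 and YFP protein coincided in cells by immunohistochemistry. The microglial markers fixed for these cells (P2ry12, Tmem119, Siglech, Sall1, Cx3cr1, Csf1r, Gpr34, Olfml3 and Fcrls) were present in every library, with a sum from 48031 to 63992 CPM (the count scaled by the normalized library total) in ARG1- and from 37936 to 48857 CPM in ARG1+ microglia. Of 9 such markers, 6 were lower and 1 was higher in ARG1+ microglia, beside 9.42% and 6.44% of all genes tested. By the study's methods, each pool of tissue was sorted into ARG1+ and ARG1- cells, with 3 litters per sex. The labels do not say which libraries share a litter or pool. The tests therefore treat libraries as independent although the populations share pools, and p-values measure the spread between these pooled libraries.

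Relative to exon length, the 10 genes covered a wide range of levels. The mean over the 12 libraries was 285 CPM per kilobase for Ly86 (SD 72.1) and 196 for Cd14 (SD 32.3), whose ranges overlapped. Tlr13, Tlr2 and Tlr7 followed with 78.0, 76.5 and 67.0 CPM per kilobase, and their ranges overlapped one another but not that of Cd14. Myd88 had 40.8, Tlr4 30.6, Tlr1 26.0 and Tlr3 12.2 CPM per kilobase, each with a range that overlapped that of the gene before it. Tlr9 was lowest at 0.755 CPM per kilobase, and its highest library (1.92) was below the lowest library of Tlr3 (7.81). The co-receptors were thus the most abundant of these transcripts and Tlr9, the receptor for unmethylated CpG DNA, was close to the limit of detection in 2 of 12 libraries.

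The first question was whether ARG1+ microglia differ from ARG1- microglia in this system. At an adjusted p under 0.05 (edgeR's quasi-likelihood test with sex as a second term), 3 of the 10 genes were lower in ARG1+ microglia, namely Ly86, Cd14 and Myd88, and 0 were higher. By the same test 15.9% of the 16908 genes tested differed, 9.42% in the lower and 6.44% in the higher direction. The 3 genes encode both co-receptors and the adaptor, while none of the 7 receptors passed the test. The populations did not overlap for Ly86 and Myd88, as for 6.56% of all genes in the lower direction. The median log2 fold change of the 10 genes was -0.10, beside 0.06 for all genes tested. Of all calls, 59.4% were in the lower direction, a share that was 44.8% when scaling by library totals (median of all genes 0.15), 47.9% with DESeq2 and 71.9% with the trend on gene length removed. Because the samples are bulk libraries, less RNA per cell cannot be told apart from fewer cells that carry it.

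**Figure D1:**
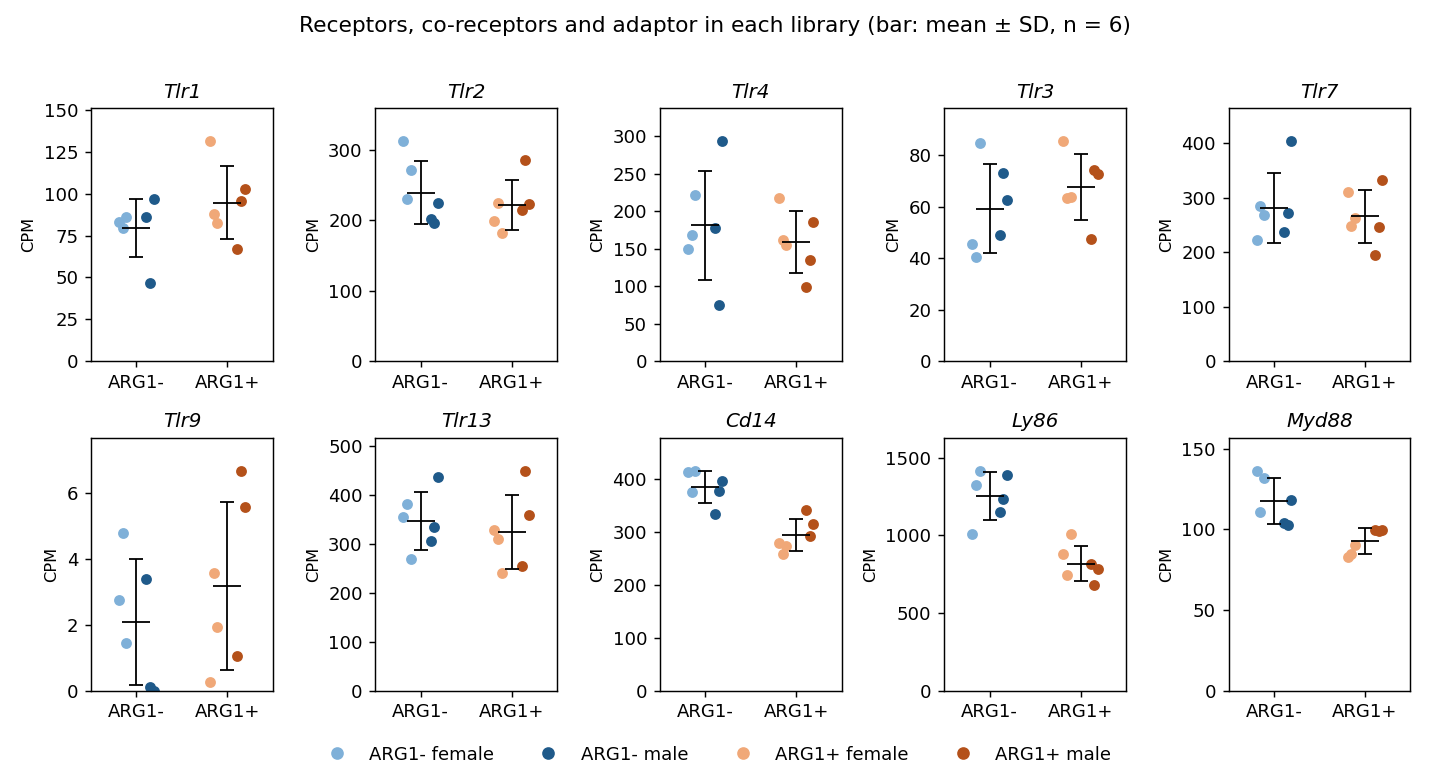
CPM (vertical axes, starting at 0) of the 10 genes in the 6 ARG1- and the 6 ARG1+ libraries, 1 point per library, with light points for females, dark points for males and bars for the mean ± SD. Ly86 and Myd88 are separated between the populations (lowest ARG1- library 1010.2 CPM against highest ARG1+ library 1007 CPM for Ly86), whereas the points of the 7 receptors overlap.

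Among the co-receptors, Ly86 (ENSMUSG00000021423, chr13:37345208-37419036, plus strand, GRCm38) showed the largest change of the 3 genes. Its level was 1010.2, 1321 and 1415 CPM in ARG1- females, 1150, 1234 and 1390 CPM in ARG1- males, 881.5, 742 and 1007 CPM in ARG1+ females, and 814, 677 and 786 CPM in ARG1+ males. Every ARG1+ library was thus below every ARG1- library, but the closest pair, both female, had 1010.2 and 1007 CPM. The mean fell from 1253 ± 155 to 818 ± 115 CPM (SD, n = 6 each), a log2 fold change of -0.62 (SE 0.11, 95% interval -0.86 to -0.38, adjusted p = 0.00317). The call held in each of the 12 fits that left out a library.

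Cd14 (ENSMUSG00000051439), the carrier of lipopolysaccharide, was measured at 414, 375 and 415 CPM in ARG1- females and 334, 377 and 395 CPM in ARG1- males. It had 279.7, 258 and 274 CPM in ARG1+ females and 342, 291 and 315 CPM in ARG1+ males. The populations overlapped only in males, where the highest ARG1+ library exceeded the lowest ARG1- library. The mean fell from 385 ± 30.3 to 293 ± 30.5 CPM (SD, n = 6 each), a log2 fold change of -0.40 (SE 0.089, 95% interval -0.59 to -0.20, adjusted p = 0.0111). This call also held without each library in turn, but not once a trend on gene length was removed from each library (log2 fold change -0.22, adjusted p = 0.132).

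The partners of these co-receptors did not pass the test. Cd180, the partner of LY86, had from 44.7 to 94.5 CPM (median 76.4) in ARG1- and from 61.5 to 111 CPM (median 71.3) in ARG1+ microglia. Its log2 fold change was 0.09 (95% interval -0.34 to 0.53, adjusted p = 0.801). Ly96 had from 9.28 to 28.9 CPM in ARG1- and from 8.72 to 30.3 CPM in ARG1+ microglia, with a log2 fold change of -0.09 (95% interval -0.84 to 0.65, adjusted p = 0.887).

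To compare a gene with its partner directly, the log2 ratio of their CPM was taken within each library for 4 pairs, a choice made once the values were known. The ratio of Ly86 to Cd180 averaged 4.09 ± 0.35 in ARG1- and 3.38 ± 0.42 in ARG1+ libraries (SD, n = 6 each), a difference of -0.71, with overlapping ranges. The ratio of Cd14 to Tlr4 differed by -0.28 and that of Cd14 to Ly96 by -0.33, also with overlapping ranges. Because of how the pairs were chosen, these ratios are given as a description, with no test. Libraries are numbered here by the replicate number in their titles, which runs to 16 with gaps. The difference in the ratio of Ly86 to Cd180 was -0.25 with libraries 13 to 16 alone, a single library from each sex and population, and -0.46 in females.

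**Figure D2:**
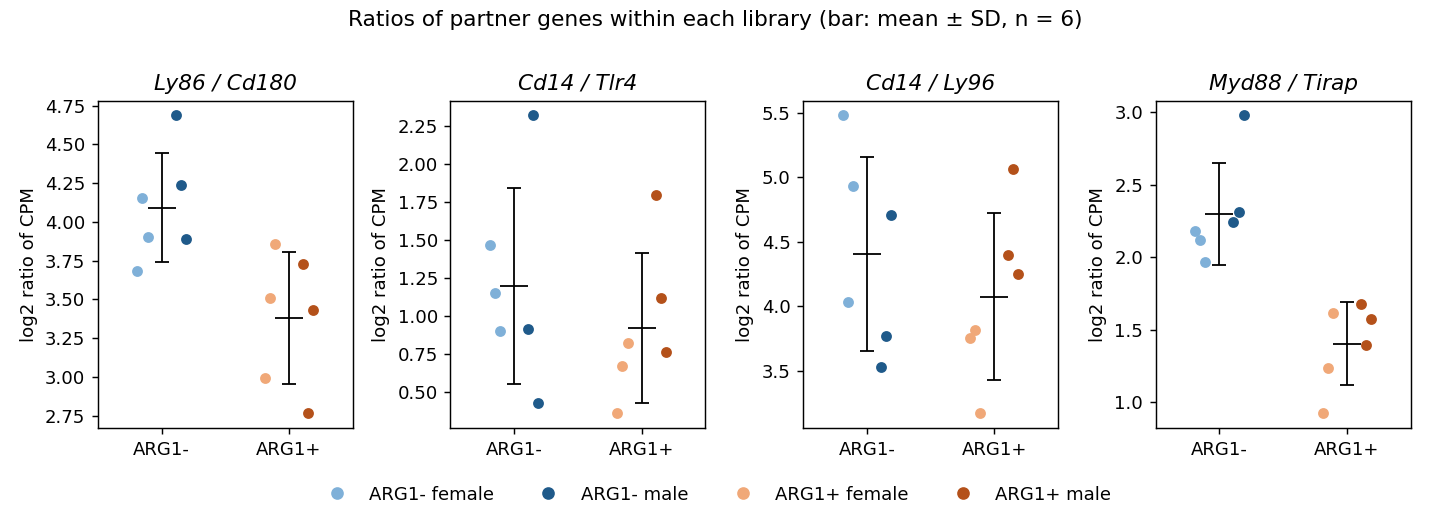
Log2 ratio of CPM (vertical axes, which do not start at 0) between partner genes in each library, 1 point per library, with bars for the mean ± SD of 6 libraries. The ratio of Myd88 to Tirap separates the populations, from 1.96 to 2.98 in ARG1- and from 0.92 to 1.68 in ARG1+ microglia, while the other 3 ratios overlap.

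Of the adaptors, Myd88 (ENSMUSG00000032508, chr9:119335934-119341411, minus strand, GRCm38) had 136, 111 and 132 CPM in ARG1- females, 104, 103 and 118 CPM in ARG1- males, 83.0, 84.6 and 90.3 CPM in ARG1+ females, and 99.9, 98.9 and 99.8 CPM in ARG1+ males. The populations did not overlap, and the gap was wider in females than in males, where the lowest ARG1- library was 103 CPM. The mean fell from 117 ± 14.2 to 92.8 ± 7.84 CPM (SD, n = 6 each), a log2 fold change of -0.34 (SE 0.10, 95% interval -0.57 to -0.11, adjusted p = 0.0448). The call was close to the threshold and held in 2 of the 12 fits without a library, those without ARG1- male replicate 5 or 6, with adjusted p from 0.0431 to 0.139. Myd88 shares 290 exon bases with Acaa1a on the opposite strand (112 ± 14.8 and 106 ± 10.9 CPM, adjusted p = 0.669), and since the strand setting of the counting is not given in the sources used here, reads there cannot be told apart.

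Of 5 other adaptors tested, 1 passed, with a higher level in ARG1+ microglia, a called share of 20% beside 15.9% of all genes tested. Tirap, which bridges TLR2 and TLR4 to MYD88, had a median of 23.8 CPM in ARG1- (from 15.02 to 33.8) and 34.7 CPM in ARG1+ microglia (from 29.5 to 43.8). Its log2 fold change was 0.56 (SE 0.17, adjusted p = 0.0404), the ranges overlapped, and the call held in 3 of the 12 fits without a library. The log2 ratio of Myd88 to Tirap averaged 2.30 ± 0.35 in ARG1- and 1.40 ± 0.29 in ARG1+ libraries (SD, n = 6 each), a difference of -0.90 with no overlap of the populations, in a pair chosen with both changes known. The difference lay between -0.96 and -0.76 without each library in turn. The estimate for Ticam1 was 0.77 on the log2 scale (adjusted p = 0.125), and Ticam2, Sarm1 and Pik3ap1 did not pass the test either.

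The surface receptors overlapped widely between the populations. Tlr2, which recognizes bacterial lipoproteins together with TLR1 or TLR6, had a median of 227 CPM in ARG1- (from 196 to 312) and 219 CPM in ARG1+ microglia (from 182 to 285). Its log2 fold change was -0.10 (95% interval -0.41 to 0.20, adjusted p = 0.677). Tlr1 had a median of 84.4 CPM in ARG1- (from 46.3 to 96.6) and 91.7 CPM in ARG1+ microglia (from 66.9 to 131), with a log2 fold change of 0.25 (95% interval -0.16 to 0.65, adjusted p = 0.423). Tlr4, the receptor for lipopolysaccharide, varied most between the libraries of 1 population among these receptors, from 75.6 to 293 CPM in ARG1- and from 98.4 to 218 CPM in ARG1+ microglia. Its log2 fold change was -0.20 (95% interval -0.80 to 0.40, adjusted p = 0.684). Of all 75-base stretches of the Tlr1 transcripts, 10.3% also occur in Tlr6, so that reads of this pair are not fully separable. On GRCm38, Tlr1 lies at chr5:64924679-64933563 and Tlr2 at chr3:83836272-83841767, both on the minus strand, and Tlr4 at chr4:66827584-66930284 on the plus strand.

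The endosomal receptors did not pass the test either. Tlr7, a receptor for single-stranded RNA, had a median of 269.6 CPM in ARG1- (from 222 to 404) and 255 CPM in ARG1+ microglia (from 195 to 333), with a log2 fold change of -0.08 (95% interval -0.43 to 0.27, adjusted p = 0.794). Tlr13, which detects bacterial ribosomal RNA, had a median of 345 CPM (from 269 to 437) and 319.7 CPM (from 241 to 449.6), with a log2 fold change of -0.11 (95% interval -0.44 to 0.23, adjusted p = 0.702). For both genes the interval excludes a 2-fold difference in either direction.

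Tlr3, the receptor for double-stranded RNA, had a median of 55.7 CPM in ARG1- (from 40.6 to 84.9) and 68.1 CPM in ARG1+ microglia (from 47.6 to 85.4). Its log2 fold change was 0.19 (95% interval -0.25 to 0.63, adjusted p = 0.578). It shares 381 exon bases with the antisense gene Gm45542, which had means of 1.26 and 1.497 CPM. Tlr9 was counted between 0 and 317 times per library, and its log2 fold change of 0.64 had a 95% interval from -1.89 to 3.17 (adjusted p = 0.764). Its spread between libraries was wide, with 128, 3 and 0 counts in the ARG1- males alone. On GRCm38, Tlr3 lies at chr8:45395665-45411080 and Tlr7 at chrX:167304929-167330558, both on the minus strand, and Tlr9 at chr9:106222598-106226883 and Tlr13 at chrX:106143204-106160493, both on the plus strand.

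**Figure D3:**
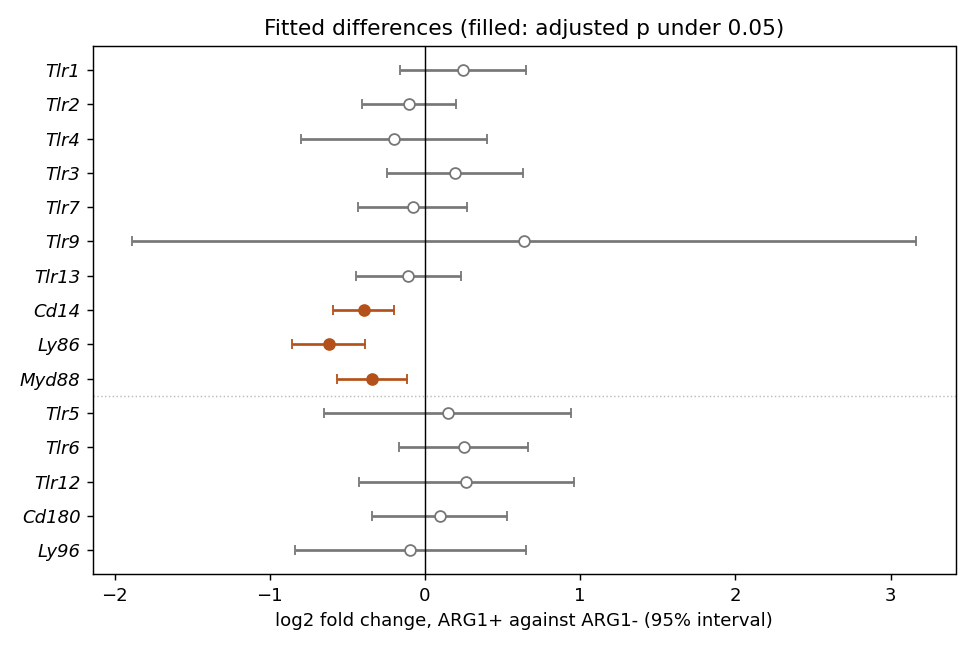
Log2 fold change of ARG1+ against ARG1- microglia (horizontal axis) with its 95% interval for the 10 genes, and below the dotted line for Tlr5, Tlr6, Tlr12, Cd180 and Ly96. Filled points mark an adjusted p under 0.05 and belong to Cd14 (-0.40), Ly86 (-0.62) and Myd88 (-0.34), and the interval of Tlr9 is the widest.

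Of the 5 remaining Toll-like receptors, 4 were tested and 0 passed, beside 15.9% of all genes tested. The flagellin receptor Tlr5 had a mean of 17.2 ± 8.94 and 18.0 ± 6.89 CPM in ARG1- and ARG1+ microglia (SD, n = 6 each; adjusted p = 0.834). Tlr6 had 48.0 ± 14.1 and 57.0 ± 6.58 CPM (adjusted p = 0.429), and Tlr12 had 36.7 ± 15.6 and 43.9 ± 10.3 CPM (adjusted p = 0.631). Tlr8 was at 0 in 5 of 6 ARG1- libraries and at 4.89 CPM in the sixth, from a male, and ARG1+ libraries ranged from 0 to 1.37 CPM (adjusted p = 0.639). Tlr11 was too low to be tested.

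Downstream of the receptors, the other 67 genes of the pathway were read from lists of 6 kinds. Of the 66 tested, 5 passed in the higher and 2 in the lower direction, a share of 10.6% beside 15.9% of all genes. The populations did not overlap for 2 of the 66 in the higher and 1 in the lower direction, beside 3.48% and 6.56% of all genes. Of the 5 higher genes, 3 were kinases, out of 20 kinases and ligases tested. That is a called share of 15%, near the 15.9% of all genes. Ikbkb, the kinase that marks the NF-kB inhibitor for destruction, rose from 84.9 ± 14.6 to 140.5 ± 22.0 CPM (SD, n = 6 each) with no overlap (log2 fold change 0.73, SE 0.13, adjusted p = 0.00396). Chuk, which encodes its partner kinase IKK-alpha, rose from 65.9 ± 16.7 to 101 ± 18.5 CPM (log2 fold change 0.60, adjusted p = 0.0338). Irak1, the kinase recruited by MYD88, rose from 97.9 ± 20.9 to 144 ± 13.8 CPM (log2 fold change 0.56, adjusted p = 0.0156).

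Rftn1 (raftlin), a lipid raft protein that assists the uptake of TLR3 and TLR4 ligands, rose from 13.4 ± 3.44 to 30.9 ± 7.76 CPM (SD, n = 6 each) with no overlap (log2 fold change 1.24, SE 0.22, adjusted p = 0.00365). No other of the 11 co-receptors and chaperones passed (9.09% called, beside 15.9% of all genes tested). Unc93b1, the chaperone that takes nucleic acid receptors to endosomes, had 3253 ± 648 and 2812 ± 385 CPM (adjusted p = 0.326). Both lower genes act near the end of the pathway. Nfkbia, the NF-kB inhibitor and itself an NF-kB target, fell from 95.8 ± 6.86 to 71.2 ± 14.8 CPM (log2 fold change -0.44, adjusted p = 0.0329), and Irf5, a transcription factor activated through MYD88, fell from 419 ± 47.1 to 342 ± 20.8 CPM with no overlap (log2 fold change -0.29, adjusted p = 0.0327). With the trend on gene length removed, 2 genes stayed higher, Rftn1 and Irak1, and the log2 fold change of Ikbkb was 0.12. Without each library in turn, Rftn1, Ikbkb and Irak1 stayed past the threshold in all 12 fits, but Chuk in 2, Irf5 in 4 and Nfkbia in 3.

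Of 13 NF-kB targets tested, 3 were higher and 1 was lower, a called share of 30.8% beside 15.9% of all genes (6.44% higher and 9.42% lower). The chemokine gene Ccl3 had from 4.36 to 13.9 CPM in ARG1- and from 19.1 to 39.3 CPM in ARG1+ microglia (a log2 difference of 1.82, SE 0.31, adjusted p = 0.00258). Ccl4 had from 3.48 to 14.7 CPM and from 15.3 to 33.2 CPM (log2 fold change 1.70, SE 0.32, adjusted p = 0.0049). Il1a, which encodes the cytokine interleukin-1 alpha, fell from 267 ± 69.8 to 151 ± 19.3 CPM (SD, n = 6 each; log2 fold change -0.83, SE 0.16, adjusted p = 0.00569). Ptgs2 had 0 counts in all ARG1- and all ARG1+ female libraries and from 0.318 to 1.07 CPM in ARG1+ males, so its call (adjusted p = 0.0404) rests on 75 counts in 3 libraries and held in 0 of the 12 fits without a library. Tnf, Il1b and Il6 had means of at most 3.07 CPM in both populations and did not pass.

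Of 14 interferon-stimulated genes tested, 2 were higher and 1 was lower, a called share of 21.4% beside the same 15.9%. Ifit2 rose from 12.95 ± 5.83 to 29.3 ± 11.4 CPM (SD, n = 6 each; log2 fold change 1.18, adjusted p = 0.0364), and Bst2 (tetherin) fell from 62.1 ± 7.72 to 42.5 ± 8.99 CPM (log2 fold change -0.55, adjusted p = 0.0294), with calls that held in 4 and 5 of the 12 fits without a library. Ifi44 had 0 counts in all 6 ARG1- libraries and from 20 to 109 counts in each ARG1+ library (adjusted p = 0.00167).

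**Figure D4:**
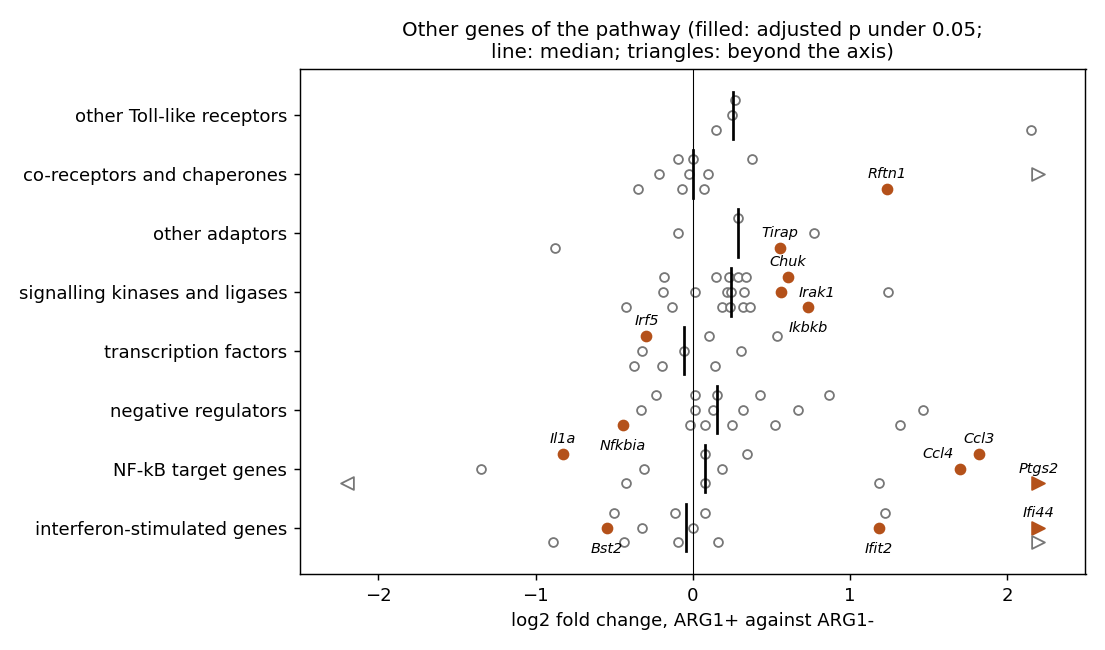
Log2 fold change of ARG1+ against ARG1- microglia (horizontal axis) for each tested gene of the other lists, 1 row per list, with filled and named points at an adjusted p under 0.05, a line at the median of the list and triangles for values beyond the axis. The kinases Chuk, Irak1 and Ikbkb (15% of their list, beside 15.9% of all genes called) lie between 0.56 and 0.73, and the target genes extend on both sides of 0.

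The second question was whether the sexes differ. None of the 10 genes passed at an adjusted p under 0.05 between females and males in ARG1- microglia, in ARG1+ microglia or in the interaction of sex with ARG1 status (edgeR), as 0.0946%, 0.0355% and 0% of all genes did. At an unadjusted p under 0.05 there were 1, 0 and 3 of the 10 genes, beside 10%, 3.12% and 9.32% of all genes. Tlr7 and Tlr13, both on chromosome X, differed between females and males by -0.24 and -0.10 on the log2 scale in ARG1- and by 0.08 and -0.27 in ARG1+ microglia, with adjusted p of at least 0.831.

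The 3 genes of the interaction were Tlr2, Myd88 and Cd14. Tlr2 had 312, 229.9 and 271 CPM in ARG1- females and 199, 225 and 182 CPM in ARG1+ females, but 202, 196 and 224 CPM in ARG1- males and 215, 285 and 224 CPM in ARG1+ males. It was lower in ARG1+ than in ARG1- females without overlap, and the groups overlapped in males. The log2 difference between ARG1+ and ARG1- was -0.42 in females and 0.22 in males, and the sex difference changed by -0.64 (SE 0.21, unadjusted p = 0.0117, adjusted p = 0.486). For Myd88 the log2 difference was -0.56 in females (adjusted p = 0.0234) and -0.12 in males (adjusted p = 0.607), with an interaction of -0.43 (unadjusted p = 0.0261, adjusted p = 0.491). For Cd14 it was -0.57 in females (adjusted p = 0.0142) and -0.22 in males (adjusted p = 0.234), with an interaction of -0.35 (unadjusted p = 0.0401, adjusted p = 0.517). A difference between the sexes in the size of these changes was therefore not established. Ly86 was lower in both sexes, by -0.51 in females (adjusted p = 0.0676) and -0.73 in males (adjusted p = 0.0275), with an interaction of 0.22 (adjusted p = 0.841).

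**Figure D5:**
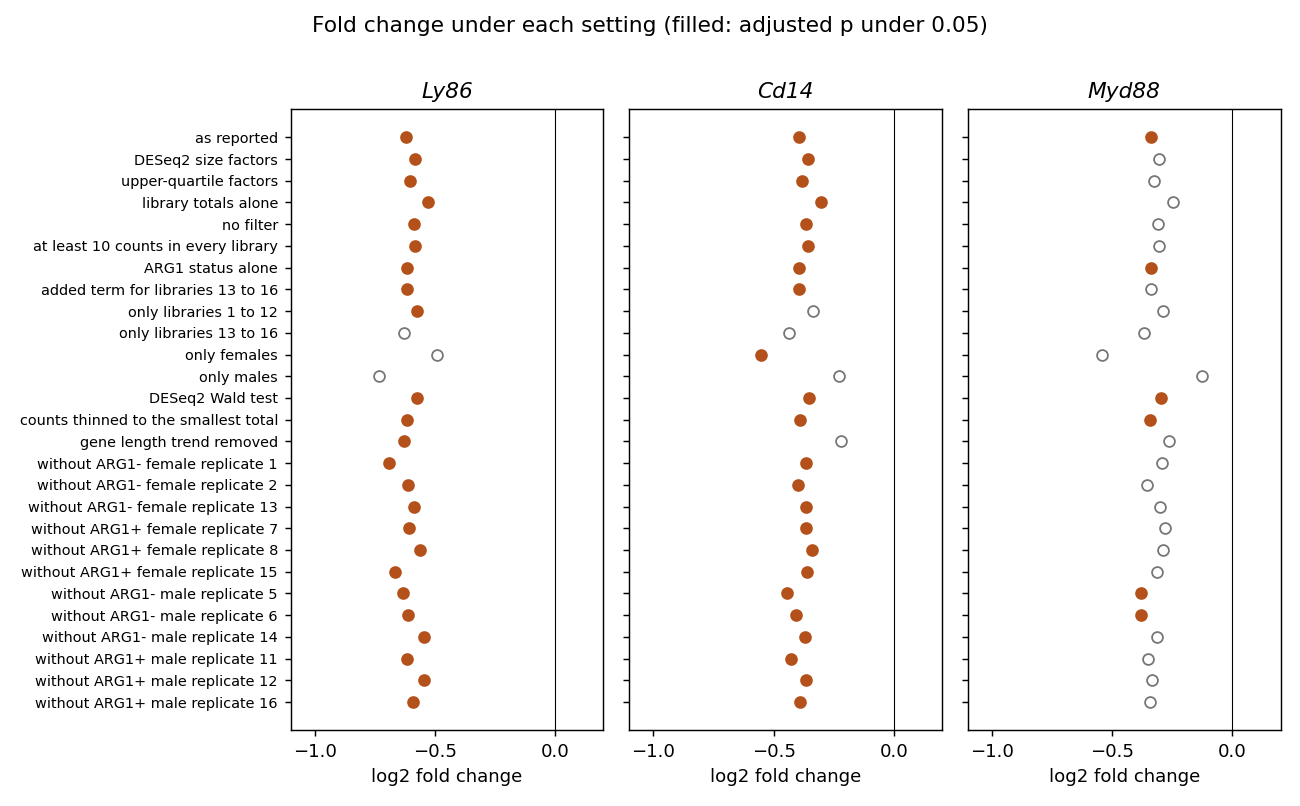
Log2 fold change of Ly86, Cd14 and Myd88 (horizontal axes) under each way of processing the counts and without each library (rows), with filled points at an adjusted p under 0.05. All points lie below 0, and each of the 3 genes has points on both sides of the threshold. Without each library in turn, Ly86 and Cd14 stayed past it in all 12 fits and Myd88 in 2. In the 14 other alternatives, Ly86 was past it in 11, Cd14 in 10 and Myd88 in 3.

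The profile over the 12 libraries was compared between genes as the root mean square difference of log2 CPM, each centered on its own mean. The 3 genes nearest to Ly86, the gene with the smallest p among those lower, were the sorting nexin Snx2 (0.11), the microglial lectin Siglech (0.11) and the nuclear transport GTPase Ran (0.11), beside 0.67 for the median gene. Nearest to Tlr1, which had the smallest p of those with a fitted increase, were Cand1 (0.16), Gm12264 (0.16) and Plxdc2 (0.18), beside a median of 0.66. These genes were chosen for the smallest distances, so lying below the median follows from the choice. A flat profile would lie at 0.35 from Ly86 and at 0.34 from Tlr1.

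Markers of other cells were measured beside these results. Siglech, P2ry12 and Tmem119, which mark microglia, were lower in ARG1+ microglia by 0.73, 0.55 and 0.77 on the log2 scale (adjusted p = 0.000426, 0.00243 and 0.00109), as Ly86 was, and so were Gpr34, Olfml3 and Fcrls by 0.92, 0.62 and 0.41. Sall1 was higher by 0.43 (adjusted p = 0.0239), while Csf1r and Cx3cr1 did not pass the test. The sum of 8 border macrophage markers ranged from 293 to 512 CPM in ARG1- and from 397 to 837 CPM in ARG1+ microglia, and Stab1 was higher. Monocyte markers summed to at most 14.1 CPM, with Chil3 at 0 in all libraries, and neutrophil markers to at most 11.5 CPM, with Ly6g and Retnlg at 0. The sum of 15 immediate early genes, which respond to cell handling, ranged from 500 to 809 CPM and from 688 to 842 CPM, and Egr1 and Atf3 were higher. The sum of 6 B cell markers was lower without overlap (from 886.5 to 1039.7 CPM and from 599 to 718 CPM, Pax5 at 0). Of these markers, 4 were too low to be tested, so the sum rests mainly on the other 2. Both were called lower, beside 9.42% of all genes tested. Whether this sum comes from B cells was not tested. The sum of 7 astrocyte markers was lower without overlap (from 176 to 224 and from 129.8 to 151 CPM). That of 8 oligodendrocyte markers touched (from 266 to 389 and from 171 to 266 CPM). The sum of 5 erythroid markers was also lower without overlap (from 3.69 to 17.7 and from 0 to 3.39 CPM). Sums overlapped for 8 neuron markers (from 4.5 to 20.2 and from 2.31 to 10.7 CPM), 7 endothelial markers (from 29.8 to 58.1 and from 44.8 to 83.6 CPM, Cldn5 at 0) and 8 dendritic cell markers (from 19.9 to 37.9 and from 26.2 to 46.2 CPM). Their part in the differences of Ly86, Cd14 and Myd88 was not tested.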

How the data were processed

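RNA-seq counts of 12 libraries of sorted microglia were used. By the study's methods and processing notes, amplified SMART-Seq cDNA was sequenced, and the authors aligned reads with STAR 2.6.1d to GRCm38, counted them per gene with featureCounts 1.5.1 and deposited these raw counts. DESeq2 1.28.1 was the authors' tool for comparisons. Here, counts were analysed in R 4.3.3 with edgeR 4.0.16: filterByExpr on the 4 groups, TMM, glmQLFit and glmQLFTest with terms for sex and ARG1 status, or with 4 group means for the sexes, and Benjamini-Hochberg adjustment over 16908 genes. DESeq2 1.42.0 served as an alternative. Symbols and exon lengths came from GENCODE M21 (55227 identifiers matched, 260 did not). No count column was left unused. A check on simulated counts changed 200 of the 16908 genes, a far smaller part than was called in the data. It called 54 of 100 genes changed 4-fold, 20 of 100 changed 2-fold, and 2 unchanged ones. These shares need not hold for the data. Replicates of a group differed by 40.7 to 125 times sampling noise (chi-square per degree of freedom). Reads carry no molecular identifiers, so 3 counts per library as a floor covers counting error only. Genes named were the 10 genes, the other Toll-like receptors, pathway genes at an adjusted p under 0.05, and the 3 nearest profiles; others named, such as Cd180, Ly96, Unc93b1 and Ticam1, were picked with their values known. The members and lists were chosen with earlier results of these data known.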

Additional observations from a re-analysis of the deposited data

Results flagged for a closer look

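In 4 of 58 groups of 6 values searched, a single library lay far from the other 5 by Dixon's criterion for one extreme value, which chance alone meets in about 1 group in 20. Tlr1 had 46.3 CPM in ARG1- male replicate 6, beside 79.4 to 96.6 CPM in the other ARG1- libraries. Tlr7 had 404 CPM in ARG1- male replicate 14, beside 222 to 286 CPM in the others, and Tlr8 had 4.89 CPM in the same library, while the other 5 ARG1- libraries were at 0. Ccl4 had 14.7 CPM in ARG1- female replicate 2, beside 3.48 to 7.65 CPM in the others, and this library remained below the lowest ARG1+ library at 15.3 CPM.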

How the results depend on the processing

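Ly86 was called lower in 12 of 12 fits without a library and in 11 of 14 other alternatives, Cd14 in 12 of 12 and 10 of 14, and Myd88 in 2 of 12 and 3 of 14, and all 3 kept their sign in each. Without each library in turn, 2 to 3 of the 10 genes were lower and 0 higher, 3 to 8 pathway genes were higher and 0 to 3 lower, and 690 to 1116 of all genes were higher and 1048 to 1553 lower. Sex contrasts gave 0 members in every alternative tried. Without ARG1+ male replicate 12, 690 genes were higher, and without ARG1+ male replicate 16, 1048 were lower. The higher pathway genes were 3 without ARG1+ female replicate 7 or 8, ARG1- male replicate 5 or 6 or ARG1+ male replicate 16, and 8 without ARG1- male replicate 14. The lower ones were 0 without ARG1- female replicate 2, any ARG1+ female, or ARG1+ male replicate 12 or 16, and 1 without ARG1- female replicate 1 or 13 or ARG1- male replicate 6. Libraries 1 to 12 are those with replicate numbers up to 12 in their titles, not all libraries. With only these, 1 member and 0 pathway genes were lower, 3 pathway genes were higher, and 304 of all genes were higher and 334 lower. Libraries 13 to 16 hold 1 library of each sex and population, so the number of calls is not given for them. Females alone gave 1 lower member, 2 higher and 1 lower pathway gene, and 467 higher and 519 lower genes. Males alone gave 0 members, 0 pathway genes and 1 gene higher and 0 lower among all. Removing the gene length trend left 1 lower member (Ly86), 2 higher pathway genes and 650 higher genes among all, with 71.9% of calls in the lower direction beside 59.4%. The DESeq2 Wald test gave 8 higher pathway genes and 2138 higher genes (47.9% of calls lower), and library totals alone gave 8 higher and 0 lower pathway genes (44.8% lower). No filter gave 0 and a minimum of 10 counts in every library 1 lower pathway gene. The cause of these shifts was not tested. Signs of genes without a call turned for Tlr2 (0.0053 with libraries 1 to 12, 0.21 in males), Tlr4 (0.086 with libraries 1 to 12), Tlr3 (-0.071) and Tlr6 (-0.15) with libraries 13 to 16, Tlr7 (0.0053 with library totals, 0.094 in females), Tlr9 (-0.62 in females), Tlr5 (-0.045 with libraries 1 to 12, -0.39 in females), Tlr12 (-0.084 in females) and Tlr8 (-0.19 without the sex term, -1.06 in males). Without single libraries, fold changes ranged from -0.35 to 0.075 for Tlr4, from -0.14 to 0.076 for Tlr7, from -0.0053 to 0.30 for Tlr5 and from 0.97 to 7.75 for Tlr8, which was called only without ARG1- male replicate 14. The ratio of Cd14 to Tlr4 turned to 0.13 with libraries 13 to 16 and 0.0036 in males, and that of Cd14 to Ly96 to 0.055 with libraries 1 to 12 and 0.57 in males. The ratio of Myd88 to Tirap was between -0.96 and -0.83 in these subsets, and that of Ly86 to Cd180 was -0.94 with libraries 1 to 12, -0.25 with libraries 13 to 16, -0.46 in females and -0.96 in males. The alternatives for ratios were added after the data were seen. No paired analysis was made, although by the study's methods each pool was sorted into both populations. The groups compared share no replicate numbers and the labels do not name the tissue pool of a library.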
